A study of Mus musculus with 10 samples.

Results

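Smchd1 was deleted in male (XY) mouse neural stem cell lines, and open chromatin on the autosomes of these lines was compared with that of male control lines. The members are the 4 male samples of the 10 in the series: 2 titled Smchd1 del/del M and 2 titled Smchd1 fl/fl M, each pair numbered 5 and 7, and each genotype enters as 1 peak list called on its pooled libraries. Per the labels, all lines are C57BL/6 and came from Smchd1 fl/fl embryos at E14.5. Cre was brought in by a retrovirus (MSCV-Cre-puro), puromycin was added at 24 h and cells were harvested at 7 days. The control samples carry that treatment text too, and the labels do not say what virus, if any, the controls were given. The other 6 samples are 3 Smchd1 del/del and 3 Smchd1 fl/fl female lines treated as the males were, per the same text, and they serve below as a comparison made from other samples.

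ATAC-seq (assay for transposase-accessible chromatin with sequencing) uses a transposase that inserts adapters where DNA is not covered by nucleosomes, so a peak marks a stretch of accessible chromatin such as an active promoter or enhancer. SMCHD1 is a non-canonical structural maintenance of chromosomes protein with an ATPase domain. It is best known for keeping genes silent on the inactive X chromosome of female cells, and it also acts on autosomal gene clusters, among them imprinted genes, clustered protocadherins and Hox genes. Male cells have no inactive X, so an autosomal shift in them is measured without changes on that chromosome.

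With 1 pooled list per genotype there is no replicate error and no test across samples, so every comparison here is a description. The lists rest on 74674218 tags in deleted males and 91734730 tags in control males after duplicate removal, so the weaker peaks of the deleted list rest on fewer tags. The deleted list held 86015 autosomal peaks and the control list 98744. Both were cut to the 86015 strongest autosomal peaks by −log10 q, which stopped at 1.39 in the deleted and 4.52 in the control list. A peak's percentile is its place in its own list, with 100 for the strongest, and its shift is the percentile in deleted cells minus that in control cells, in points. Fold enrichment is the authors' ratio of summit height over local background. In the sources, 1 description field of the male samples calls them female, while title and sex field say male. The Y-linked genes Ddx3y, Uty and Eif2s3y had peaks in both male lists, with strongest fold enrichments between 7.06 and 11.7, and none in either female list. Kdm5d, also Y-linked, had 0 peaks in all 4 lists, and Xist had 1 peak in each male list (3.35 in control and 3.58 in deleted) and 2 in each female list. All 14 neural stem cell marker genes examined (Sox2, Nes, Pax6 and others) had a shared peak in males. So did all 7 neuron, 7 astrocyte, 5 endothelial and 5 fibroblast markers found. Of 6 oligodendrocyte lineage markers 5 had one, and of 5 microglia and blood markers 2. Having a shared peak therefore does not tell neural stem cells from most of these cell types. Of the 54 shared peaks of neural stem cell markers, 0 shifted by 25 points. Among all shared peaks 4.09% rose and 3.76% fell. The strongest end peak of Smchd1 itself, chr17:71474730-71476107, stood at rank 1187 in control and 261 in deleted males, with fold enrichments of 9.64 and 11.6. Which stretch of the gene Cre removes is not stated in the labels, so that promoter peak does not check the deletion.

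Of the named gene ends, 4 carry a promoter in the RefSeq table (build GRCm38.p6) that overlaps the shifted peak, and their 250 bases upstream of the start are shown because they differ in CpG content, a feature along which shifts were uneven. CpG dinucleotides are in capitals. The peak covers all 250 of these bases at 5730507C01Rik, 225 at Ugt1a6a, 120 at Tekt3 and 73 at Itgbl1. The peak rose at the CpG-rich end of 5730507C01Rik (28 CpG, chr12:18514260-18514509, plus strand), at Tekt3 (10 CpG, chr11:63061409-63061658, plus strand), a gene of sperm flagella, and at the CpG-poor start of Ugt1a6a (2 CpG, chr1:88134559-88134808, plus strand), which encodes a glucuronidating enzyme. It fell at Itgbl1 (5 CpG, chr14:123659890-123660139, plus strand), which encodes a secreted integrin-like protein.
5730507C01Rik: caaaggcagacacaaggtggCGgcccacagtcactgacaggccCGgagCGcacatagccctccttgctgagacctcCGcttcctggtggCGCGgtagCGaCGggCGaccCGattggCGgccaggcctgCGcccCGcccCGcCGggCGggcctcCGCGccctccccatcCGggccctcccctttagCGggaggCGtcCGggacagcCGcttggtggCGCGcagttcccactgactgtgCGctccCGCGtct
Tekt3: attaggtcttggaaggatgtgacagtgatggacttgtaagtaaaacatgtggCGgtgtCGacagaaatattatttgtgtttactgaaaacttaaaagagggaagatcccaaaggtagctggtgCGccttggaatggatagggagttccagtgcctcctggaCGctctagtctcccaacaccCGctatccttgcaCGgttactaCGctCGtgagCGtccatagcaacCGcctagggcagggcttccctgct
Ugt1a6a: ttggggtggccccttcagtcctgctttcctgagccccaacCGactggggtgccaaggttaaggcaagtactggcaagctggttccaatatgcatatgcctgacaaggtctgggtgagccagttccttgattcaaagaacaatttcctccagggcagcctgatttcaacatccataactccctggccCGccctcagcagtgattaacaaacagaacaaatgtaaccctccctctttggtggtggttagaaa
Itgbl1: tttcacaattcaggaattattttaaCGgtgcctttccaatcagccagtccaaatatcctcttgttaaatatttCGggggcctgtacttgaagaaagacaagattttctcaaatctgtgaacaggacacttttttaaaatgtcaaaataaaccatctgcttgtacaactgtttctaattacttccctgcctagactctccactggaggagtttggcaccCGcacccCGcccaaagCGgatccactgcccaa

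Autosomal accessibility was largely alike in deleted and control males. Of the 86015 peaks, 69247 (80.5%) were shared, the median shift was 0.07 points (SD 13.4 over peaks), and 64.7% of shared peaks moved by less than 10 points. A shift of 25 points or more was called: 2829 shared peaks rose (4.09%) and 2603 fell (3.76%). The larger shifts leaned upward, with 506 rises and 350 falls of 40 points or more. Comparisons between the sexes within 1 genotype show what these pooled lists differ by when Smchd1 status is the same. Control males minus control females had an SD of 11.3 points, with 1689 peaks higher (2.29%) and 1907 lower (2.58%) by 25 points, and 120 and 165 by 40 points. Deleted males minus deleted females had an SD of 12.6 points, with 2313 higher (3.30%) and 2366 lower (3.37%). Both share a list with the male genotype comparison, so each is given by its own spread, and the genotype comparison had a wider spread and a longer upper tail than either. In females, deletion gave 3.91% of shared peaks rising and 3.76% falling. The split of rises and falls depends on which peaks are ranked. Among the strongest 50 percent of both lists there were 1433 rises and 1637 falls, and among the strongest 25 percent 961 and 1094. With all autosomal peaks as deposited it became 1406 rises and 5263 falls, and with −log10 q of at least 10 in each list 545 rises and 4408 falls. In those settings the deleted list is the shorter, which lowers percentiles there.

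**Figure D1:**
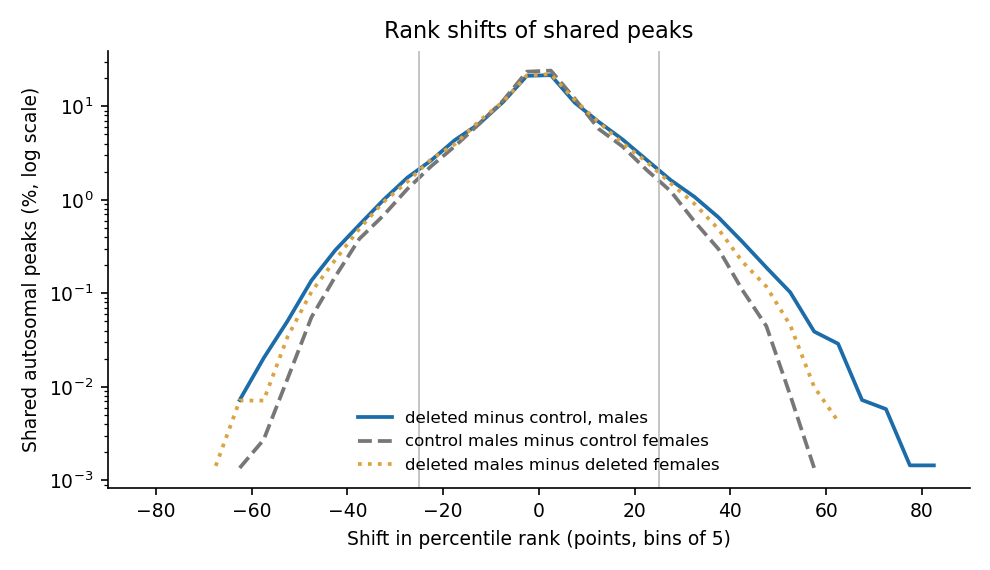
Share of shared autosomal peaks (percent, log scale) by shift in percentile rank (points, bins of 5) for deleted minus control males and for the 2 comparisons between sexes within a genotype. Grey lines mark 25 points. The male genotype curve lies above both others beyond 40 points on the right, where it held 506 peaks.

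The largest rises took weak control peaks to strong ones and were seen in females too. The largest was inside Rbfox1, a long gene for a neuronal splicing regulator, at chr16:6716215-6716625. Its fold enrichment was 3.35 in control and 12.9 in deleted males, its summit height 27 and 89 tags, and its rank went from 74316 to 3415.5, a shift of 82.4 points. In females the same peak had fold enrichments of 3.81 and 9.77 and a shift of 62.2 points. The other 9 of the 10 largest rises lay outside genes, near Gm or Rik loci, near the pseudogene Vaultrc-ps1, or, for 2 of them, farther than 50 kb from any gene. The peak near Vaultrc-ps1 (chr8:65349416-65349762) went from 3.47 to 9.01 in males and from 3.49 to 7.56 in females. The peak far from genes at chr3:6865854-6866184 went from 3.11 to 7.44 in males and from 3.17 to 6.98 in females. Over all 10, male shifts ran from 66.9 to 82.4 points, 8 were in both female lists, and all 8 rose there by 55.5 to 80.4 points. The remaining 2 were present in deleted females and absent from the control female list.

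The largest falls were smaller and mostly not seen at that size in females. The first was inside Gmds, for a GDP-mannose dehydratase, at chr13:31900245-31900685, with fold enrichments of 6.82 in control and 3.00 in deleted males (summit heights 56 and 20) and a shift of −63.1 points. In females it was 5.40 and 5.09, a shift of 5.73 points. A peak inside Agbl4, which encodes a deglutamylase of tubulin, fell from 7.66 to 3.29 in males (−60.8 points) and had 6.98 and 4.93 in females (−12.1 points). A peak inside Hydin, a gene of motile cilia, fell from 6.10 to 2.86 (−60.1 points), beside 4.60 and 3.37 in females (−16.6 points). A peak inside Slc44a5, a choline-transporter-like gene, shifted by −58.6 points, and by −20.2 points in females. Among the 10 largest falls, all were in both female lists, 8 had the same sign there and 1 passed 25 points: a peak at chr16:67743278-67743708, farther than 50 kb from any gene, with −62.8 points in males and −29.1 in females. Male values chose these peaks, so only the female values are free of the choice.

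**Figure D2:**
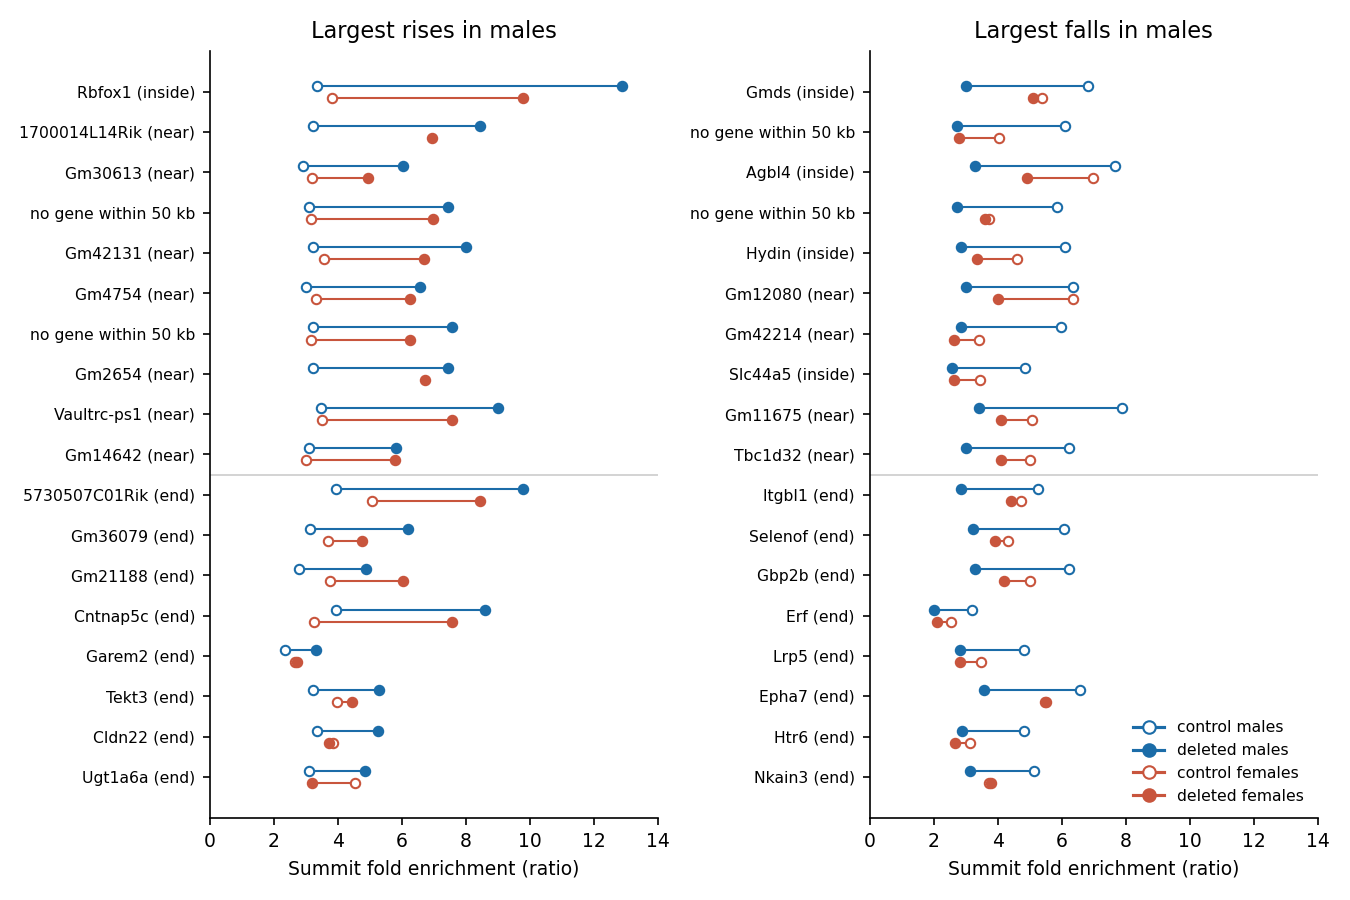
Summit fold enrichment (ratio) in control (open) and deleted (filled) lists of males (blue) and females (red) for the 10 largest rises and falls of all shared peaks (above the grey line) and the 8 largest at protein-coding gene ends (below it). Rises such as Rbfox1 and Cntnap5c moved in both sexes, whereas most falls were short in females.

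At the ends of protein-coding genes shifts were rare: of 13589 such peaks, 212 rose (1.56%) and 126 fell (0.93%), beside 4.09% and 3.76% of all shared peaks. End peaks were also stronger, with a median control percentile of 82.1 beside 59.6 for all, and strong peaks have less room to rise. The part of strength in these low shares was not tested. Cntnap5c, a gene for a neurexin-like adhesion protein, had an end peak at chr17:57769021-57769452 go from 3.95 to 8.58 in males (52.1 points) and from 3.25 to 7.56 in females (73.6 points). 5730507C01Rik went from 3.95 to 9.77 in males (60.9 points) and from 5.08 to 8.43 in females (35.1 points). Gm36079 (54.0 points) and Gm21188 (52.5 points) rose in females as well, by 29.3 and 40.6 points. The remaining rises were male in size: Garem2, an adaptor of receptor tyrosine kinase signalling, shifted by 51.7 points in males and 10.9 in females, Tekt3 by 49.7 and 22.1, the claudin gene Cldn22 by 48.2 and 10.7, and Ugt1a6a by 48.0 and −24.4. So 4 of these 8 rises passed 25 points in females and 7 of 8 had the same sign. None of the 8 largest falls did so in females, and 5 of 8 had the same sign: Itgbl1 (−54.6 points in males, −0.65 in females), Selenof, a selenoprotein gene (−50.4 and 0.83), Gbp2b, a guanylate-binding protein gene (−49.7 and −2.62), Erf, an ETS repressor (−46.7 and −21.6), the Wnt co-receptor Lrp5 (−46.2 and −17.9), the ephrin receptor Epha7 (−44.4 and 9.32), the serotonin receptor Htr6 (−44.1 and −7.50), and Nkain3 (−41.5 and 15.2). The Erf peak went from 3.20 to 2.03 and the Lrp5 peak from 4.82 to 2.83 in males.

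Shifts at promoters thinned out as CpG content rose. Of the 31387 RefSeq promoter windows (300 bases, 250 before to 50 after the start), 11243 shared peaks overlapped at least 1. Where the window held 0 to 5 CpG, 4.31% of 904 peaks rose and 2.102% fell. With 6 to 14 CpG it was 2.08% and 1.39% of 2307 peaks, and with 15 or more CpG 0.486% and 0.261% of 8032. Females ran the same way, with 2.60%, 1.07% and 0.438% rising. These classes also differ in strength, with median control percentiles of 66.5, 77.8 and 87.8, and strong peaks have less room to rise. The part of strength in this pattern was not tested. Short motifs were searched on both strands: 1.09% of peaks at windows with the CTCF core CCCTC (in 66.3% of all windows) rose and 1.22% without it. For the SOX core ACAAT (30.4% of windows) the shares rising were 1.19% and 1.10%, for the E-box CAGATG (17.2%) 1.51% and 1.07%, and for the AP-1 site TGACTCA (5.26%) 1.85% and 1.10%. The shares falling with and without the motif were 0.627% and 0.684% for the CTCF core, 1.01% and 0.552% for the SOX core, 0.955% and 0.601% for the E-box, and 0.265% and 0.653% for AP-1, where they rest on 1 of 378 peaks with the motif. The palindromic NFI motif stood in 0.0382% of windows and under 2 peaks.

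Away from promoters, males lost rank in gene deserts and long genes. Peaks farther than 50 kb from any gene had a median shift of −1.96 points, with 255 of 3586 falling (7.11%) and 173 rising (4.82%). Among all male shared peaks 3.76% fell and 4.09% rose. In females peaks that far from genes had a median of 0.91 points, with 3.38% falling and 8.10% rising. Among all female shared peaks 3.76% fell and 3.91% rose. Inside genes longer than 500 kb the male median was −2.23 points, with 7.05% falling and 4.20% rising, beside −0.39 points, 4.93% and 5.52% in females. Inside genes of 100 kb or less it was 0.69 points in males. The sexes thus had opposite signs far from genes, and no replicate allows that difference to be tested.

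The female lists give the same contrast in other samples. Over the 62996 peaks shared in all 4 lists, male and female shifts had a Pearson r of 0.23 and a Spearman rho of 0.18. The points share the libraries, depth and the peaks' control strength, so this is a description. Of the 2339 male rises among them, 473 (20.2%) also rose in females, which is 24.0% of the 1974 female rises. Among all peaks of the same male control rank 9.65% rose in females. Of the 2320 male falls, 289 (12.5%) fell in females, 13.1% of the 2200 female falls, beside 5.15% at the same control rank. Male rises of 40 points or more stood farthest from that background: 158 of 416 (38.0%) rose in females, beside 10.5%, with a female median of 17.4 points. For falls of 40 points or more it was 54 of 316 (17.1%) beside 4.29%.

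**Figure D3:**
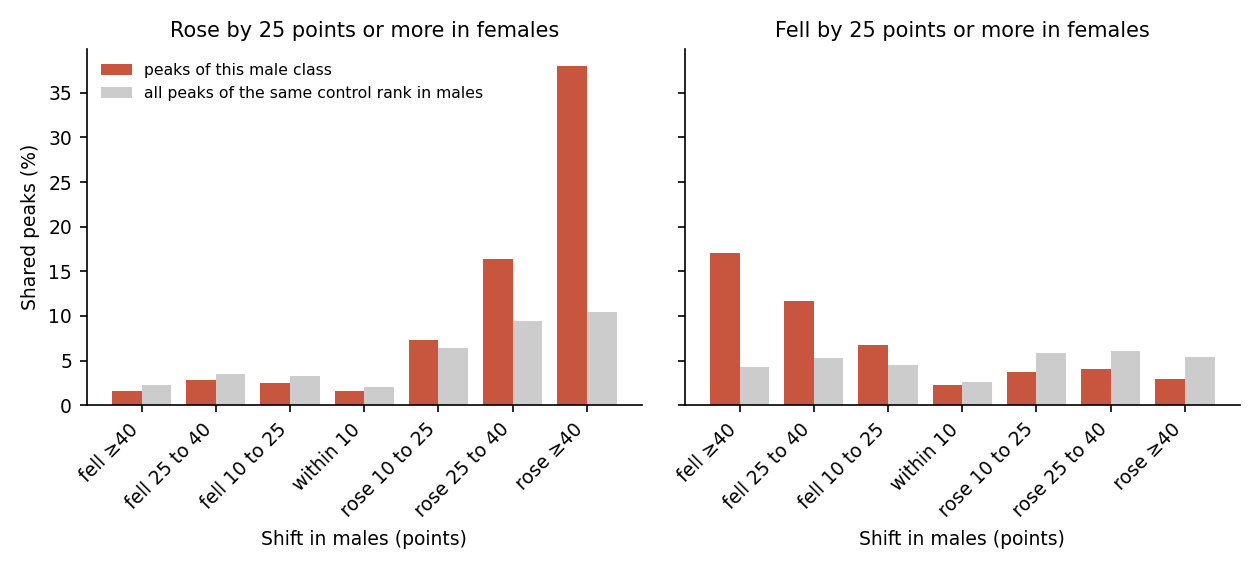
Percent of shared peaks that rose (left) or fell (right) by 25 points or more in females, by the size of the male shift in points (red), beside all peaks of the same male control rank (grey). The red bar is highest for male rises of 40 points or more, at 38.0% against 10.5%.

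Some strong peaks stood in 1 male list only. A peak was called gained if it stood among the strongest 50 percent of the deleted list (43007 peaks) and overlapped nothing in the control list of equal length, and lost in the reverse case. There were 359 gained peaks (0.835%, exact binomial 95% interval 0.751 to 0.925, counting error only) and 470 lost (1.09%, 0.997 to 1.20). Control males against control females gave 38 and 50, and deleted males against deleted females 195 and 333. Of the 359 gained, 133 (37.0%) were gained in females as well, 28.4% of the 469 female gains (1.09% of candidates), 44 more were weaker peaks of deleted females only, 79 were in both female lists and rose by 25 points, and 70 were in both and moved less. Another 21 were found in control females only, 9 in neither female list, and 3 in both with a fall of 25 points. Of the 470 lost, 14 (2.98%) were lost in females, 7.41% of the 189 female losses (0.439% of candidates), 102 more were weaker peaks of control females only, 35 were in both female lists and fell by 25 points, and 294 were in both and moved less. Another 14 were in both with a rise of 25 points, 8 in deleted females only and 3 in neither female list. The full control list held a weaker counterpart for 78 of the gained peaks. The deleted list has no peaks beyond those used, so no counterpart could be looked up for lost peaks.

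The genes with the most gained peaks follow, beside 0.835% of all candidates gained. The number of candidates per gene is not given here, so these counts have no share of their own. Tbx5, a T-box factor of heart and forelimb development, gained 2 peaks: one 31.45 kb away at chr5:119916518-119917209, rank 4211 with a fold enrichment of 10.1 in deleted males (7.28 in deleted females), and one inside the gene with 6.03 (5.67 in females). The pheromone receptor gene Vmn1r71 gained 2, with 11.7 at its end (chr7:10747822-10748321) and 9.42 at 20.1 kb from it, beside 9.28 and 9.08 in deleted females. A peak 24.3 kb from Zscan4c, a gene of early embryos, had 10.4 in deleted males and 9.21 in deleted females. It was picked after its values were seen. None of these 5 had a counterpart in either control list used. Tmem132d, a transmembrane gene of the brain, gained 2 peaks (7.87 and 7.26), and 2 of its 3 shared peaks rose, by 47.3 and 60.2 points. Snrpn, an imprinted gene expressed from the paternal copy, gained a peak at an annotated end (chr7:60450040-60450312, 7.73 in deleted males and 6.24 in deleted females) and one inside (5.15), and another peak inside it rose from 3.35 to 7.58 (64.9 points). Its other 2 shared peaks moved by 2.25 and 7.28 points. Psg28 gained 2 peaks, Hs3st4 and Rbfox1 2 each, and Tcra 3. All 12 strongest gained peaks were found in deleted females: 9 in that list only, and 3 in both female lists with a rise of 25 points or more.

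Gained peaks were spread unevenly over the chromosomes. Chromosome 7 held 49 of the 359 (13.6%) beside 6.58% of the strongest 50 percent of deleted peaks, chromosome 5 held 37 (10.3% beside 6.14%) and chromosome 14 held 28 (7.80% beside 4.23%). Chromosome 3 held 9 (2.51% beside 6.18%). The 1 Mb with the most gained peaks was the T-cell receptor alpha locus on chromosome 14 from 53 Mb, with 8 of 24 candidates, and females gained 8 there too. The Ajap1 block on chromosome 4 from 153 Mb had 5 of 13, beside 6 gained in females. Among all male candidates 0.835% were gained.

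No gene lost more than 3 peaks, and 1.09% of all candidates were lost. Candidates per gene are not given here either, so the counts below have no share of their own. Cntn1, a contactin of axons, and Rbms3, for an RNA-binding protein, lost 3 each, with control fold enrichments of 5.26 to 6.58 and 4.91 to 5.02. Gpr65, Cdh11, Anks1b, Robo2 and Neb lost 2 each. Shared peaks numbered 40 at Rbms3, 35 at Anks1b, 24 at Robo2, 11 at Cntn1, 8 at Cdh11 and 2 at Gpr65. Females lost 1 peak at Anks1b and 0 at the other genes named here. All 12 strongest lost peaks (control fold 6.07 to 7.30) were in both female lists and moved less than 25 points there.

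Among 3141 genes with at least 5 shared peaks, 97 had a median rise of 10 points or more (3.09%) and 104 a median fall (3.31%). In females 4.23% of 3263 genes rose and 4.05% fell. Thsd7b, a thrombospondin-domain membrane protein gene, rose by 22.5 points (SD 20.1 over its 9 peaks, 8 higher). Its peak at chr1:129887903-129888335 went from 3.95 to 8.44 and that at chr1:129473465-129473782 from 4.07 to 7.01. Its female median was 27.2 points, with 5 of 9 peaks risen. Kcnh8, a voltage-gated potassium channel gene, rose by 23.7 points with 5 of 5 peaks higher, beside 32.9 in females. Its end peak was nearly even (5.41 in control and 5.47 in deleted males, 2.19 points), while the peak at chr17:52810786-52811122 went from 3.23 to 5.29 and was found in deleted females only. Gabrb2, for a GABA-A receptor subunit, rose by 19.9 points (5 of 5 higher) beside 23.3 in females. Glt1d1 had 17.5 points beside 17.3 in females. The pseudogenes Vmn2r-ps16 and Vmn2r-ps17 had 24.9 and 17.2 points, beside 27.2 and 26.0, and lie in the Zfp gene cluster of chromosome 4.

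Other medians were far lower in females. Dnmt1, the maintenance DNA methyltransferase, rose by 20.5 points, with 4 of 5 peaks higher and 2 past 25 points. Its peak at chr9:20943978-20944309 went from 3.63 to 4.84, and the strongest, chr9:20952178-20953231, from 7.68 to 7.75. The female median was 4.43 points, with 1 of 5 peaks risen. Atp8b4 (23.3 points, 3 of 5 higher) had −4.03 in females, and Ptprf, a receptor phosphatase of axon guidance (18.3 points, 7 of 8 higher), had −10.005. Atp8b4 turned to −1.75 points with the strongest 50 percent of each list. The named falls mostly had female medians near 0. Abi3bp, for an extracellular matrix protein, fell by 20.03 points with 0 of 11 peaks higher, among them chr16:56567039-56567390 (4.31 to 2.58) and chr16:56677166-56677491 (4.91 to 3.43), and its female median was −0.77. Esyt3 (−19.1), Metrnl (−18.2), Ipcef1 (−17.8), Cspg4b (−17.7), Ndst4 (−17.7), Mgat4c (−17.5), Tmem130 (−16.8) and Agk (−16.7) had female medians between −5.65 and 2.43. Fchsd2 was the exception at −17.3 and −14.3. With the strongest 50 percent of each list the falls shrank to −0.11 points at Cspg4b, −4.11 at Abi3bp and −7.55 at Mgat4c. Ranked by fold enrichment, Cspg4b had −2.83. Over all settings, 18 recomputed medians of the named genes weakened below the call, 2 reversed and 331 kept both, though several settings cannot change them. Over the 77 risen genes with female values 19 rose there (24.7%, beside 3.36% of all 2770) and 5 fell (6.49%, beside 3.68%), while 37 of 77 were higher and their female median was −0.27 points. Of 83 fallen genes, 6 fell there (7.23%, beside 3.68%).

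Some long genes moved peak by peak. Rbfox1 had 20 shared peaks with a median of 8.83 points, 4 risen, 0 fallen and 2 gained, and its strong peak at chr16:5911752-5912446 was even (10.7 and 11.3, −0.23 points). In females the median was 13.1, with 6 risen and 4 gained. Cntnap5a had 4 shared peaks, all higher, with a median of 33.1 points: its end peak went from 4.43 to 7.44 and chr1:116284017-116284364 from 5.50 to 10.2, and its female median was 27.4. Cntnap5b had an end peak of 8.02 in control and 12.2 in deleted males (14.9 points, and 14.9 in females), 3 other shared peaks between −3.11 and 11.4 points, and 1 gained peak. Asic2, for an acid-sensing ion channel, had an inner peak at chr11:81767683-81768062 go from 3.71 to 9.65 (65.7 points in males and 73.5 in females). Cntnap5b and this Asic2 peak were chosen after their values were seen.

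The gene lists put the immune receptor V segments first. V segments are the variable gene pieces of immunoglobulins and T-cell receptors, which lymphocytes rearrange and which neural cells do not use. Over 41 shared peaks the median shift was 15.2 points and 37 were higher. Of the 41, 13 rose (31.7%, beside 4.09% of all shared peaks) and 0 fell (beside 3.76%). Another 9 peaks were gained and 1 lost, beside 0.835% and 1.09% of all candidates. The number of candidates in a gene list is not given here, so a list's gained and lost counts have no share of their own. The shared peaks had a median fold enrichment of 4.31 in control and 5.58 in deleted males, and none passed 9.30. At Ighv5-6 and Ighv5-12 it went from 3.83 to 6.58, at Ighv7-1 from 3.47 to 5.72, at Trav6n-6 from 3.71 to 6.01, at Trav8n-2 from 3.59 to 5.72 and at Trbv12-2 from 4.55 to 8.01. The 18 immunoglobulin heavy chain peaks had a median of 20.5 points and the 22 of T-cell receptor alpha 10.8, while 8 of the 9 gained peaks were at T-cell receptor alpha segments. In females the list's median was 28.6 points, with 42 of 42 higher and 24 risen (57.1%, beside 3.91% of all female shared peaks). V segments, and the Vmn, Ear, Mup and Zfp clusters below, hold near-identical copies, and the labels do not say how reads matching several copies were placed, so a value at 1 copy is uncertain. Microglia and blood markers stood at a median of −2.67 points over 7 peaks, and their part in the V segment values was not tested.

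Hox genes, which pattern the body axis behind the forebrain, came next. Over 13 shared peaks the median was 11.2 points, with 11 higher, 4 risen (30.8%, beside 4.09% of all shared peaks), 1 fallen (7.69%, beside 3.76%) and 2 gained, at Hoxd10 and Hoxd13, beside 0.835% of all candidates. All were weak: in control males the fold enrichment lay between 3.09 and 5.14. Hoxc10 went from 3.88 to 6.11 (39.4 points), Hoxb3 from 3.59 to 5.15 (35.7), Hoxd8 from 3.11 to 3.86 (28.0) and Hoxa10 from 3.23 to 3.70 (26.2), and Hoxb8 fell from 5.14 to 3.18 (−35.8) and was found in control females only. In females Hoxd8 (35.0) and Hoxb3 (32.1) rose, whereas Hoxc10 (6.79) and Hoxa10 (4.36) shifted little, and the list's median was 7.25 points.

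Other families had a few risen members. The Psg, Serpinb, Skint and Pramel families had a median of 4.08 points over 28 peaks, 5 risen (17.9%, beside 4.09% of all shared peaks), 0 fallen (beside 3.76%) and 4 gained (beside 0.835% of all candidates), led by Serpinb1b (3.23 to 5.64, 53.95 points) and Skint5 (2.99 to 4.01, 35.6 points). Histone genes had 4.07 points over 66 peaks with 1 risen (1.52%) and 2 fallen (3.03%), both below the shares of all shared peaks. The zinc finger genes named Zfp had 0.25 points over 799 peaks, with 27 risen (3.38%) and 14 fallen (1.75%), beside 4.09% and 3.76% of all. Of them, Zfp600 (27.1 points, 4 of 4 higher, and 20.3 in females), Zfp990 (21.3 and 14.1) and Zfp993 (20.6 and 27.5) lie in 1 cluster of chromosome 4. Zfp663, elsewhere, had 23.2 points in males and −23.0 in females. Vomeronasal receptors were even in males, at 0.77 points over 53 peaks, beside 13.4 in females. Of the BMP and TGF-beta genes (0.99 points, 8 risen and 2 fallen of 106 peaks, 7.55% and 1.89% beside 4.09% and 3.76% of all), Bmp6 had 23.9 points with 3 of 3 peaks higher, and 21.8 in females. The DNA methylation and H3K9 genes had 2.14 points over 64 peaks, with 4 risen (6.25%) and 1 fallen (1.56%), beside the same shares of all.

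Lists of neural genes had medians on both sides of 0: neural stem cell markers stood at 1.78 points, Notch genes at 1.43, Hedgehog genes at 2.29, patterning homeobox genes at 1.33 and neuron markers at −0.75. Neuronal adhesion and synapse genes had −2.48 points over 866 peaks, with 39 risen (4.503%), 63 fallen (7.27%), 10 gained and 20 lost. Among all shared peaks 4.09% rose and 3.76% fell, and inside any gene longer than 500 kb 4.20% and 7.05%. Of all candidates 0.835% were gained and 1.09% lost. The female median was 0.73 points, with 58 risen (6.19%) and 30 fallen (3.20%) of 937, beside 3.91% and 3.76% of all. Robo2, an axon guidance receptor gene, had −11.1 points with 4 of 24 peaks higher, and Cntn6 −9.02, with female medians of −1.57 and −1.62, while Cntnap5a and Rbfox1 of the same list rose or were higher as above. SOX and POU factors, regulators of neural progenitors, had a median of −1.67 points. Of their 110 peaks 0 rose and 7 fell (6.36%), beside 4.09% and 3.76% of all shared peaks. In females the median was −2.80 points, with 0 risen and 13 fallen (12.3%) of 106, beside 3.91% and 3.76% of all. Of these factors, Sox6 had −3.67 points in males and −15.3 in females. NFI factors had 2.52 points in males and −4.95 in females. The imprinted clusters had medians near 0: Snrpn 0.56 points over 29 peaks, Igf2r −0.15 over 20, and Kcnq1 and H19 −0.85 over 38. In that order, the shares risen were 3.45%, 15% and 2.63%, beside 4.09% of all. The shares fallen were 10.3%, 5% and 2.63%, beside 3.76%. They rest on at most 3 peaks each. In females 0 rose and 0 fell in each cluster, beside 3.91% and 3.76% of all female shared peaks. The Snrpn cluster also gained 2 peaks, and 4 in females. Other imprinted genes had 0.49 over 149 peaks, with 8 risen (5.37%) and 5 fallen (3.36%). Of these, Rasgrf1 had −26.0 points (5.88 in females) and Copg2 16.2 (4.94). Clustered protocadherins had 3.06 points over 20 shared peaks, with 0 risen and 0 fallen, beside 4.09% and 3.76% of all. Another 2 peaks were gained there, beside 0.835% of all candidates. Polycomb genes stood at 0.00 points (3 risen and 0 fallen of 78, 3.85% and 0% beside 4.09% and 3.76% of all). Cell cycle genes stood at 1.62 (0 risen and 0 fallen of 79, beside the same shares). Housekeeping genes stood at 2.22 points and ribosomal protein genes at 2.14, so list medians of this size were also found where no group was of interest.

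**Figure D4:**
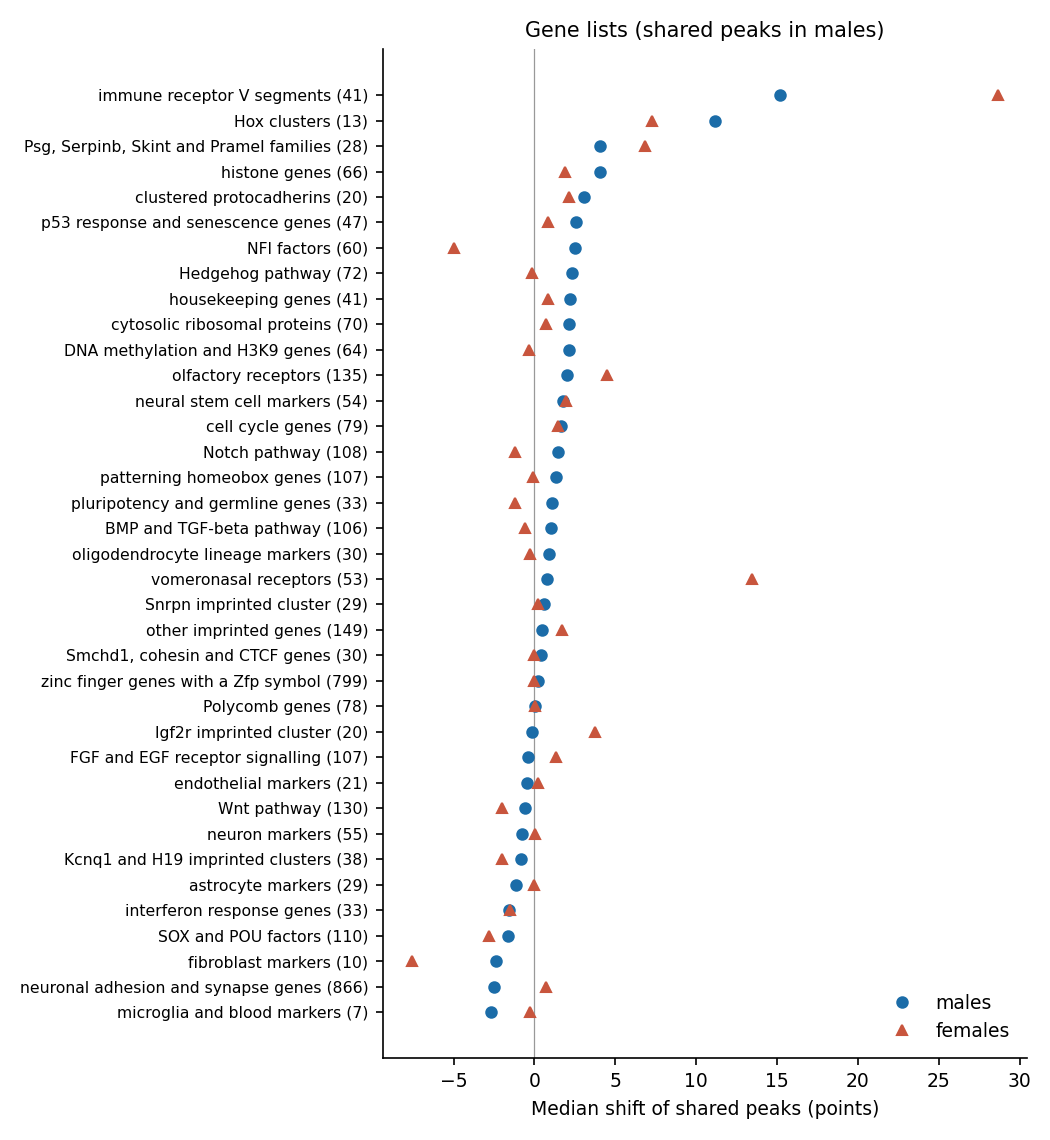
Median shift of shared peaks (points) for 37 gene lists in males (circles) and females (triangles), with the number of male shared peaks in brackets. Immune receptor V segments stand highest in both sexes, at 15.2 and 28.6 points.

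A few stretches of the genome had a high or a low median, and most risen peaks lay outside them. Of 2022 blocks of 1 Mb with at least 10 shared peaks, 15 had a median rise of 10 points or more (0.742%) and 14 a median fall (0.692%). In females 2% of 2051 blocks rose and 0.0975% fell. The highest was the block on chromosome 13 from 72 Mb, which holds Irx2, an Iroquois homeobox gene: median 23.6 points, 11 of 12 peaks higher, 5 risen and 2 gained. The peak at chr13:72209933-72210472, farther than 50 kb from any gene, went from 3.83 to 7.27 and was found in deleted females only, while the Irx2 end peak had 3.72 and 3.57 (8.98 points). The 7 peaks with female values had a median of 22.0, and the neighbouring blocks had −0.88 and 0.76 points in males. The block on chromosome 14 from 43 Mb, with the ribonuclease genes Ear1, Ear10 and Ang5, had 20.2 points (21 of 24 higher, 10 risen) and 20.8 in females. The block on chromosome 7 from 40 Mb, with Vstm2b, had 20.03 points (13 of 16 higher) and 29.6 in females, and its end peak of Vstm2b was even (3.56 and 3.27). The Kcnh8 block on chromosome 17 from 52 Mb had 16.6 points (17.1 in females), and the block with Ajap1 and Dffb 15.6 (1.61 in females). Among the strongest 50 percent of both lists, medians were 7.20 (chromosome 14 block), 4.96 (chromosome 7), 3.65 (chromosome 17) and 7.09 points (Ajap1 block). Among the strongest 25 percent, the blocks on chromosomes 14, 7 and 17 had 8.39, 3.70 and 9.81. Where the lists differ in length, all peaks as deposited gave 8.66 for the chromosome 17 block and 6.30 for the Ajap1 block. A −log10 q of at least 10 gave 1.77, −2.09, −1.17 and 4.21 for the blocks on chromosomes 14, 7 and 17 and with Ajap1. All of these medians were below the call. Further risen blocks held the Mup genes (13.5 points, 19 of 19 peaks higher; 27.7 in females), Zfp987 and Zfp600 (13.4, 33 of 39 higher; 19.9), Asic2 (13.1; 11.1) and Dpp10 (13.97; 6.67). Of 13 risen blocks with at least 10 female peaks, 9 rose in females and 12 were higher.

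**Figure D5:**
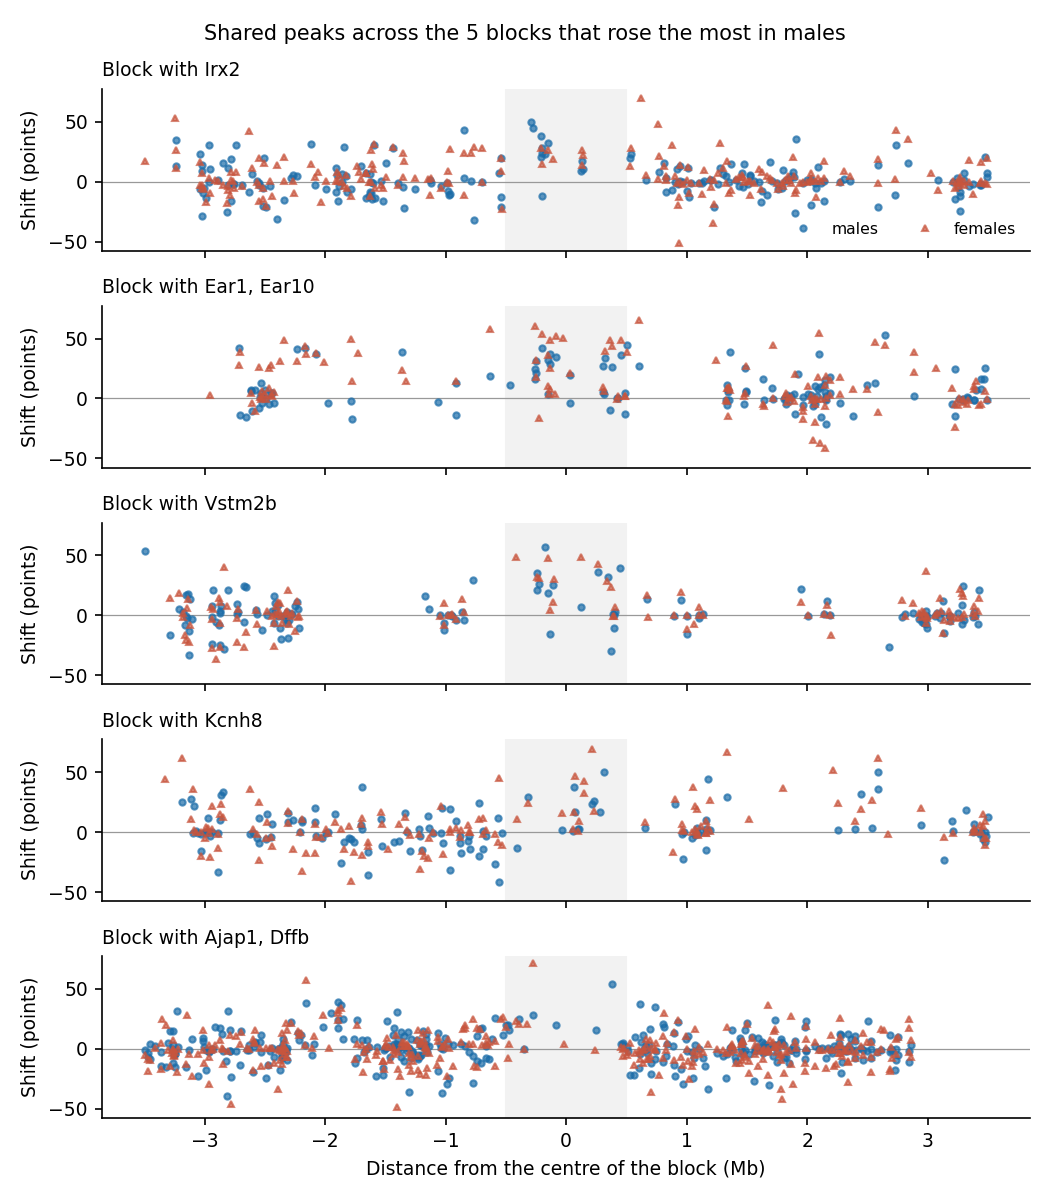
Shift of each shared peak (points) against distance from the block centre (Mb) in males (circles) and females (triangles) for the 5 blocks with the highest male medians, the block shaded. High peaks sit in the shaded stretch, with medians of 15.6 to 23.6 points, and the chromosome 14 block also has a high neighbour at 12.9 points.

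Falling blocks were shallower. The block on chromosome 16 from 67 Mb with Cadm2, a synaptic adhesion gene, had −13.5 points with 1 of 15 peaks higher, and its neighbour from 66 Mb had −10.4. Fold enrichment at chr16:67791446-67791772 went from 5.98 to 3.72, while the Cadm2 end peak had 8.16 and 9.02. The Mdga2 block on chromosome 12 had −13.3 points with 0 of 14 peaks higher, among them chr12:66640464-66640825 (8.02 to 5.44). The block of Robo1 and Robo2 had −12.5, that of Spag16 and Vwc2l −12.3 and a block with 0 protein-coding genes on chromosome 3 from 147 Mb −11.1. Their female medians were −0.89, −4.56, −6.35, −6.63 and −1.11. Other settings weakened some male medians below the call. Overlap of at least 50 percent gave −8.70 for the block from 67 Mb. Ranking by fold enrichment gave −9.68 for the Spag16 block and −7.46 for the chromosome 3 block. With the smallest share of strongest peaks tried, the Robo, Spag16 and chromosome 3 blocks had −6.77, −9.99 and −5.09. The Mdga2 block had no such value. Over the named blocks 160 recomputed medians kept their call, though several settings cannot change them. Of the 14 fallen blocks 11 were below 0 in females and 0 fell there, beside 0.0975% of all 2051 female blocks. With so few female blocks falling, 0 of 14 does not tell these blocks from others. The share of all female blocks below 0 is not given here. Across 2007 blocks with values in both sexes, male and female medians had a Pearson r of 0.25 and a Spearman rho of 0.02, and the points share the libraries and their depth.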

How the data were processed

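ATAC-seq of mouse neural stem cell lines was used as deposited: 1 peak list for each of 4 groups (2 male and 3 female libraries per genotype). The build was mm10, and the tools named are Bowtie2 2.2.5, edgeR, Trim Galore 0.4.0, Picard, bcl2fastq, MACS2 and SAMtools, per the submitters' processing notes, which give no roles. Peak calls came from MACS 2.1.0.20140616 on 1 alignment per group and no control (q-value limit 0.05, tags moved 75 bp and extended to 150 bp, 1 tag per position), per the file headers. That single alignment is the ground for calling replicates pooled. Pileup is a signal height and fold enrichment a ratio, both deposited by the authors for each summit. The −log10 q values are the authors' own, and about 78.4% of autosomal peaks in the deleted male list tie with another peak. Tags numbered 91734730 and 74674218 in control and deleted males and 144613215 and 139318421 in females.

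Peaks on chromosomes 1 to 19 were ranked by −log10 q within the 86015 strongest of each list, ties sharing their mean rank. Shared peaks overlap by at least 1 bp and are each other's strongest overlap. The longest overlap was tried first, before it was seen to pair broad peaks with weak pieces of themselves, so this choice followed a look at the data. Peaks were assigned to genes by a summit at most 1 kb from an end, then by lying inside, then by the nearest end up to 50 kb off (RefSeq, GRCm38.p6, the same sequence as mm10). Of 701 symbols and prefixes in 37 gene lists, 690 were found. Genes named are Smchd1, the 10 highest and lowest gene medians, the 10 largest peak rises and falls, the 8 largest at protein-coding ends, the 8 genes with most gained or lost peaks, genes of the 5 highest and lowest blocks and up to 4 members per list, with Gm, Rik and LOC symbols mostly counted only. Further genes of the called blocks are named as examples. The members and lists were chosen with earlier results of these data known. Scripts used matplotlib 3.10.9, scipy 1.17.1, numpy 2.4.6 and pandas 2.3.3 under Python 3.11.15 and were checked on simulated lists. Alternatives changed the overlap, list length, ranking value, call size, gene assignment and block size. Sex chromosomes were left out except to check the labels. A few genes that the naming rule picks are not reported here.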

Additional observations from a re-analysis of the deposited data

How the results depend on the processing

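No paired analysis was possible because each genotype is 1 pooled list, so the numbers 5 and 7 that the male samples share cannot be used, and no replicate could be left out. Of 240 recomputed values, 170 stayed near the main one, by a limit on their ratio to it. Many of the 170 could not move. Settings of gene assignment, gene minimum and block size, for example, leave the counts of risen, fallen, gained and lost peaks unchanged. Overlap of at least 50 percent gave 2102 gained, 2105 lost and 8 fallen blocks. The strongest 50 percent of each list gave 1433 rises, 1637 falls, 131 gained, 75 lost, 44 risen genes, 29 fallen blocks and 265 rises and 190 falls shared by both sexes. The strongest 25 percent gave 961, 1094, 73, 49, 11 risen and 40 fallen genes, 41 risen and 24 fallen blocks, 133 and 150 in both sexes, and 90 falls far from genes. All peaks as deposited gave 1406 rises, 5263 falls, 1100 lost, 31 and 412 genes, 3 and 89 blocks, 6 gene lists above 0, 185 and 1060 in both sexes and 469 falls far from genes. A −log10 q of at least 10 gave 545, 4408, 87 gained, 291 lost, 8 and 399 genes, 3 and 284 blocks, 5 lists, and 109 and 1153 in both sexes. The last 2 settings rank within lists of unequal length. Ranking by fold enrichment gave 868 lost and 7 fallen blocks, and by pileup 593 gained, 880 lost and 23 fallen blocks. A call at 10 points gave 12451 rises and 11959 falls, 3413 and 3372 in both sexes and 977 falls far from genes, and at 40 points 506, 350, 78, 12 and 40. Without the margin 14494 were gained and 16046 lost. Fallen genes numbered 63 with gene bodies and 5 kb and 62 with gene bodies alone. Genes with at least 3 peaks gave 530 rises and 462 falls, and with at least 8 peaks 24 and 24. Blocks of 2 Mb gave 7 risen and 3 fallen, and of 500 kb 27 fallen.

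Atp8b4 turned to −1.75 points with the strongest 50 percent and −2.93 at −log10 q of at least 10, and the blocks of Vstm2b and Kcnh8 to −2.09 and −1.17 at that limit. The cause was not tested. The named peaks kept their direction and their call under all 333 recomputed values, but many of these values could not differ. Settings of the margin, gene assignment, gene minimum and block size leave a peak's shift unchanged. The other call sizes could not fail for peaks picked as the largest shifts. A peak that was no longer shared under a setting has no value there. The Rbfox1 peak, for example, had control rank 74316 and lies outside the strongest 50 percent. Both pairing alternatives, the longest overlap and leaving out peaks with several overlaps, were added after seeing the data and are among the settings used. The 74674218 tags of deleted males, against 91734730 in controls, limit what can be said of the weakest peaks.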
